A study of Mus musculus with 8 samples.

Results

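The genes described here run the cell division cycle: G1 cyclins and kinases, replication licensing factors, DNA synthesis enzymes, and the cyclins, kinases, checkpoint and spindle proteins of mitosis. They were a list of 45 gene symbols, and every probe set annotated with 1 of these symbols was taken, whatever its value. Named probe sets were found for 44 of the 45, which are 44 of the 18194 genes named on the array. Cyclin B1 was not analysed here. The 44 genes had 105 probe sets, of which 92 passed a filter on low signal, with at least 1 for each gene. Each gene is described by its kept probe set of highest mean signal unless another is named.

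The tissue was the optic fissure, a transient cleft along the underside of the developing eye that closes by fusion. Embryos were wild-type C57BL/6 mice (C57BL6/J in 1 label), and the cleft was collected from frozen tissue by laser capture microdissection. Embryonic day 10.5 (E10.5) has 3 arrays, A, B and C, E11.5 has 3 likewise, and E12.5 has 2, A and B. Every array is a pool of 3 embryos, which the labels place both in a single litter and in separate ones, amplified in 2 rounds by T7 polymerase. Values are deposited log2 signals, so a difference of 1 is a 2-fold difference, and p-values measure the spread between these arrays. The array medians lay between 4.37 and 4.48, while the 99th percentile ran from 12.5 to 12.9 at E10.5, 11.2 to 12.4 at E11.5 and 12.5 to 12.6 at E12.5. Of the 8 listed markers of the ventral optic cup and retinal progenitors, 6 had a kept probe set. Their summed linear signal was 6179 to 7174 at E10.5, 3203 to 6637 at E11.5 and 8981 to 10071 at E12.5. By gene, however, their median log2 change at E12.5 against E10.5 was -0.08. The means of Pax6, from 10.47 to 12.07, and Vax2 were higher at E12.5 than at E10.5. Those of Vax1, Six3, Rax and Lhx2 were lower.

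D-type cyclins with Cdk4 and Cdk6, then E-type cyclins with Cdk2, inactivate the retinoblastoma proteins and release the E2F transcription factors, which switch on replication genes. Licensing factors load the MCM helicase on origins in G1, and DNA synthesis uses it in S phase. Cyclins A and B with Cdk1 then drive mitosis, and the spindle checkpoint holds anaphase until every chromosome is attached. In the embryonic eye these genes mark progenitors that still divide, and neurons switch most of them off when they leave the cycle. In bulk tissue such as this, fewer dividing cells and less of each RNA per cell cannot be told apart.

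In log2 signal, most cell cycle genes read lowest at E11.5. Taken from each array's median, the median of the 44 genes was 6.22, 5.92 and 5.64 on the E10.5 arrays, 5.05, 5.17 and 5.47 on the E11.5 arrays, and 5.92 and 5.76 on the E12.5 arrays. On this measure the 3 E11.5 arrays lay below all 5 others. Ranked among all non-control probe sets of the array, the genes had a median percentile of 95.7, 95.8 and 94.8 at E10.5. It was 95.8, 95.0 and 94.8 at E11.5, and 95.5 on both E12.5 arrays, so by rank the stages overlapped. The median log2 change of the genes was -0.86 for E11.5 against E10.5, 0.62 for E12.5 against E11.5 and -0.14 for E12.5 against E10.5. All 13050 genes tested had medians of -0.22, 0.11 and -0.10 in the same comparisons. Taken from the medians of all kept probe sets, the first pair of changes was -0.67 and 0.52 as deposited, and -0.19 and 0.22 after quantile normalization. Bright genes dipped likewise. All 1387 genes with a mean log2 signal above 10 had medians of -0.87, 0.65 and -0.22, against -1.03, 0.83 and -0.16 for the 23 cell cycle genes in that range. The 3 E11.5 arrays were below all 5 others for 21 of the 44 genes (47.7%, against 8.59% of all genes), and among genes above 10 for 60.9% against 31.1%. Array E11.5 A was the lowest of the 8 for 34 of the 44 genes, a share of 77.3% against 38% of all genes. Among genes above 10 the shares were 91.3% and 89.3%.

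**Figure D1:**
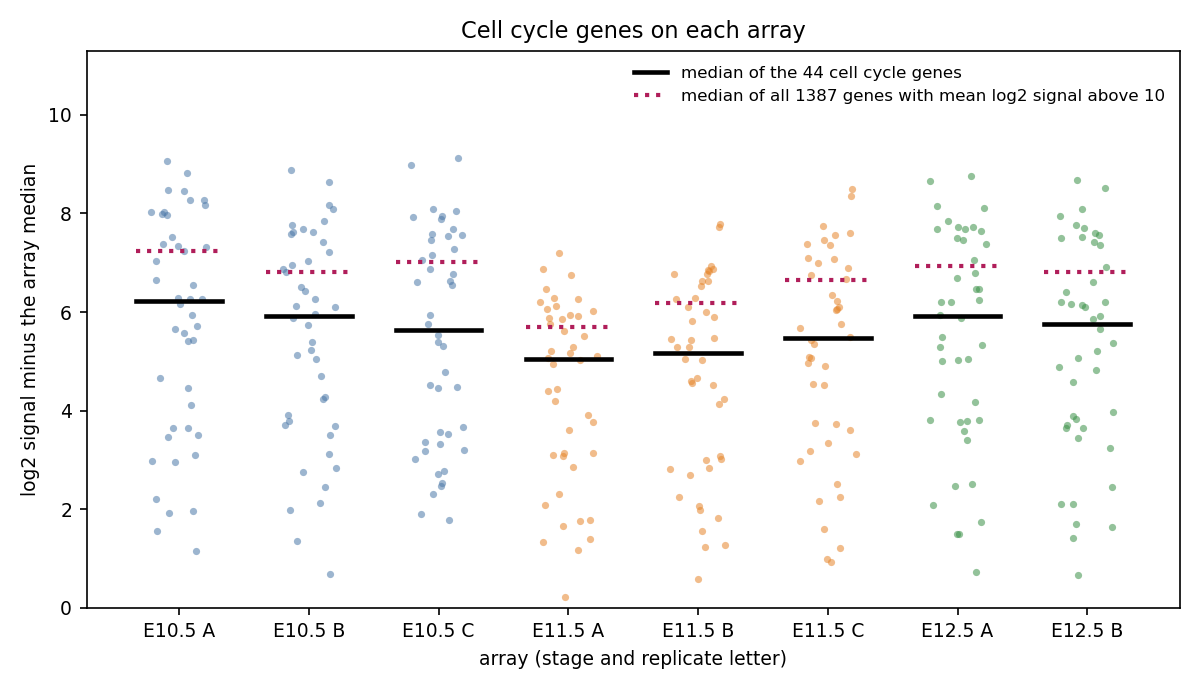
Log2 signal minus the array median (vertical axis) of the 44 cell cycle genes on each of the 8 arrays (horizontal axis). Each point is 1 gene, black bars are the genes' medians, and dotted bars are the medians of all 1387 genes with a mean log2 signal above 10. The black bars lie at 5.05 to 5.47 on the E11.5 arrays and at 5.64 to 6.22 on the others, and the dotted bars dip on the same arrays.

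In limma, with Benjamini-Hochberg adjustment over all 27022 kept probe sets, 0 of the 44 genes were called at E11.5 against E10.5. The background was 0.153% of all genes called higher and 0.023% called lower. At an unadjusted p below 0.05, 31 of the 44 genes were lower (70.5%, against 18.3% of all genes) and 0 were higher (against 3.87%). Above a mean signal of 10 the lower share was 87% against 59.1%. All 3 E11.5 arrays read below all 3 E10.5 arrays for 27 genes, 61.4% against 22.2% of all genes. In the range above 10 these shares were 78.3% and 54.1%. The sign was negative for 43 of the 44 genes (97.7%, against 72.3% of all genes and 97.3% of all genes above 10). At E12.5 against E11.5, Ccnd1 and Ccne2 were called higher, 4.55% of the genes against 1.79% of all genes, and 0 were called lower, against 0.238%. At an unadjusted p below 0.05, 15 were higher (34.1%, against 14.9%), or 47.8% against 24.9% above 10. Both E12.5 arrays read above all 3 E11.5 arrays for 29 genes, 65.9% against 31% of all genes, and above 10 for 78.3% against 55.2%. The sign was positive for 43 of the 44 genes, against 60% of all genes and 91.2% of those above 10. Over the 92 kept probe sets, 89 had a negative sign at E11.5 against E10.5, 77 a positive one at E12.5 against E11.5, and 62 a negative one at E12.5 against E10.5. Of all 27022 kept probe sets, 70.9%, 60% and 57.6% had these signs in the same comparisons. At E12.5 against E10.5, 0 genes were called, against 3.49% of all genes called higher and 1.78% called lower. At an unadjusted p below 0.05, 2 were higher (4.55%, against 11.1%) and 7 were lower (15.9%, against 13.1%). Of all genes above 10, 3.32% were higher and 12.8% lower by that rule. E11.5 set against the mean of both other stages called 0 genes, against 0.069% of all genes called higher and 0.215% called lower, and 32 were lower at an unadjusted p below 0.05 (72.7%, against 16.1%), or 91.3% against 56.9% of all genes in the range above 10. The F test for any stage difference called Ccnd1 and Ccne2 alone, 4.55% against 3.38% of all genes, and 27 genes had an unadjusted p below 0.05 (61.4%, against 27.5%), or 82.6% against 49% above 10.

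Some measures of RNA quality and of other tissues differed between these stages, and others overlapped. The Actb control's 3′ probe set exceeded its 5′ one by 6.83 to 6.96 on the log2 scale at E10.5, by 5.45 to 6.61 at E11.5 and by 6.88 to 7.21 at E12.5. For Gapdh the excess was 4.19 to 4.71, 3.35 to 4.63 and 4.78 to 5.17 at these stages, so E11.5 and E10.5 overlapped. The summed linear signal of 10 pigment epithelium markers was 5625 to 9989 at E11.5, against 1981 to 4852 at E10.5. Of the 10, 4 were called higher, against 0.153% of all genes. The summed signal of 11 measured periocular mesenchyme markers was 1894 to 3205 at E11.5, against 1718 to 3982 at E10.5, which overlap. By gene, however, their median log2 change was 1.41, and 3 were called higher, against 0.153% of all genes. At an unadjusted p below 0.05, 10 of the 11 were higher, against 3.87% of all genes. Foxd1, the brightest of them and so the most weighted in the sum, went the other way, from a mean of 10.91 to 10.14. Markers of newborn neurons summed to 256 to 326 at E10.5, 217 to 247 at E11.5, and 991 and 11760 on the E12.5 arrays A and B. Of the 12 measured, 6 were called higher at E12.5 against E11.5, as were 1.79% of all genes. The part of these differences in the values of the cell cycle genes was not tested.

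**Figure D2:**
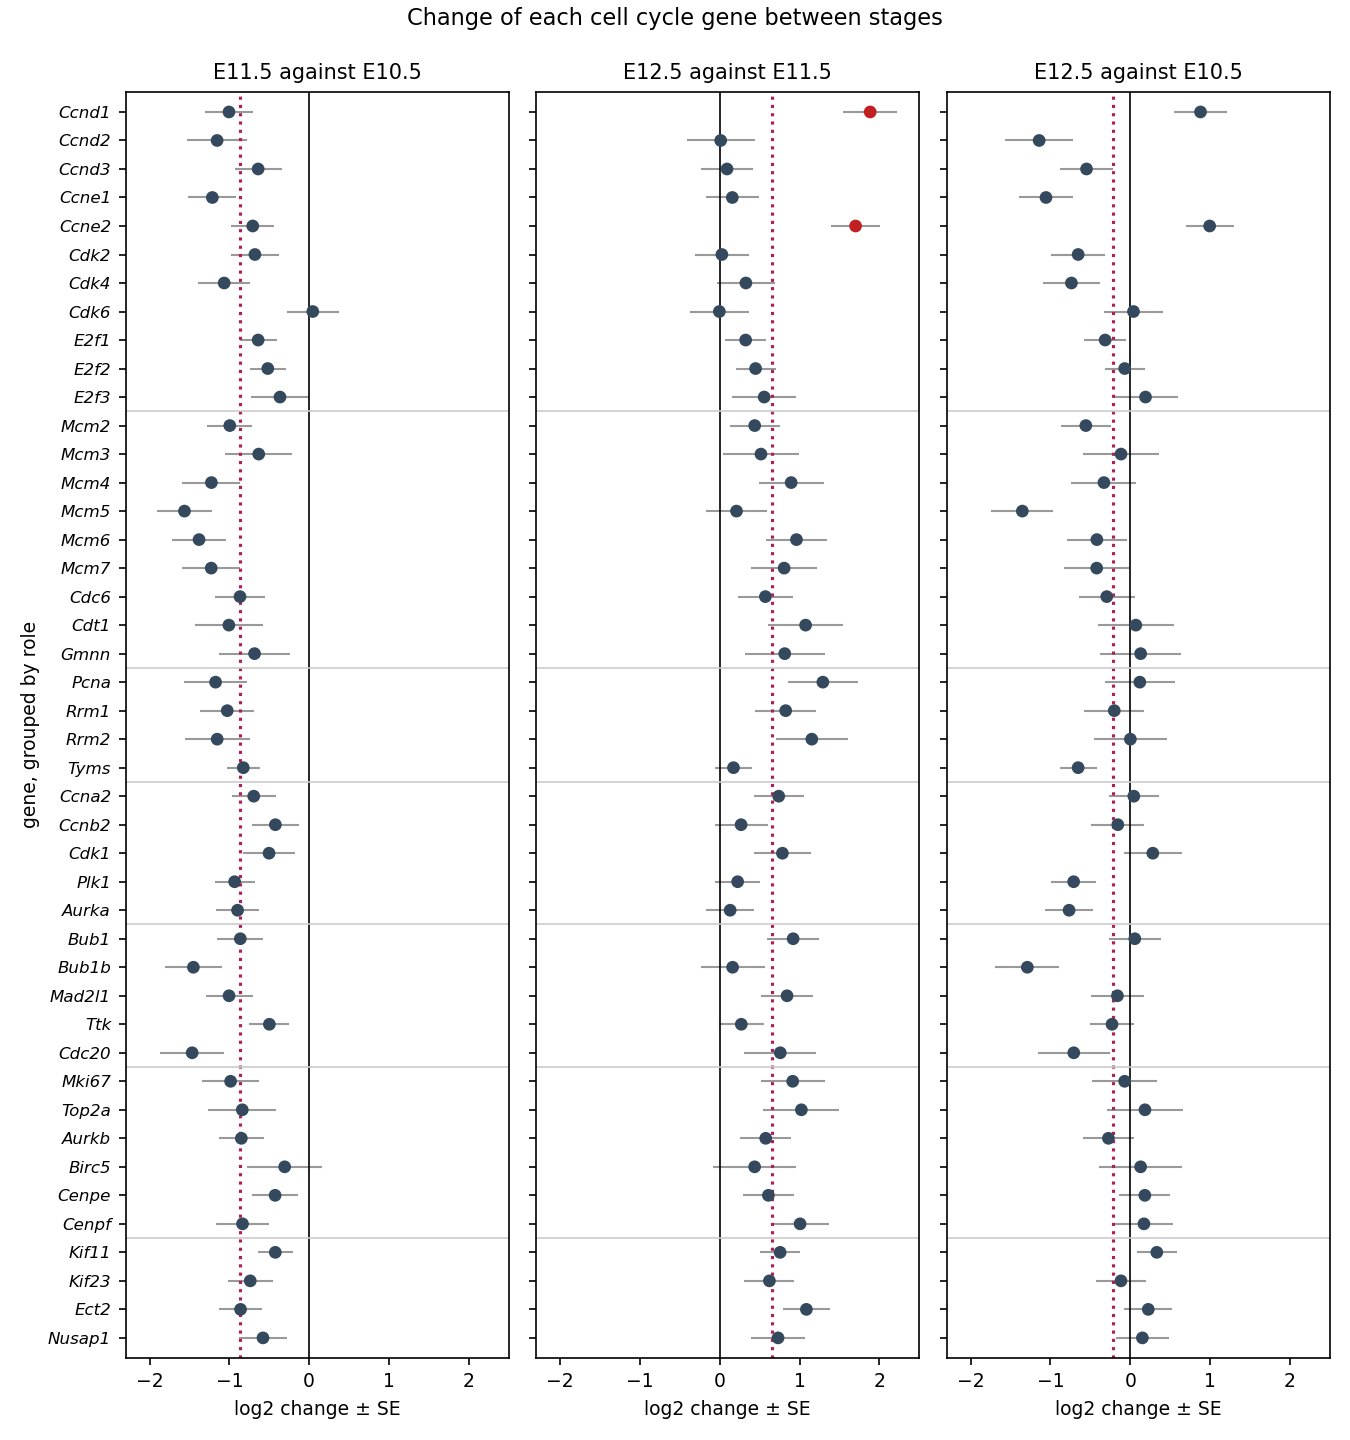
Log2 change (horizontal axis, bars are standard errors) of each of the 44 cell cycle genes, grouped by role, in 3 stage comparisons. Red points passed an adjusted p of 0.05, and dotted lines are the median of all genes with a mean log2 signal above 10. At E11.5 against E10.5, 43 of 44 points lie below 0, and the red points are Ccnd1 and Ccne2 at E12.5 against E11.5.

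The promoters of these genes were read for the 3 sequence motifs best known from cell cycle promoters. These were the E2F motif, TTTNGCGC, the cell cycle homology region (CHR), TTTGAA or TTCGAA, and the CCAAT box, each on both strands. RefSeq windows of GRCm38.p6, from 250 bases before to 50 after the start, were found for 37 of the 44 genes, in 42 windows. No window was found for Aurkb, Ccna2, Ccnd1, Ccnd2, Ccne2, Gmnn and Mcm4. The E2F motif was in 16.7% of these windows, against 1.38% of all 32851 promoter windows. The CHR was in 45.2% against 19.2%, CCAAT in 71.4% against 37.4%, and CHR with CCAAT in 45.2% against 7.52%. The E2F motif and the CHR divided by role, in groups of 4 to 11 windows. CCAAT did not divide in that way, at 75% of the licensing windows and 80% to 100% in the 4 mitotic groups. The E2F motif was in 5 of the 8 licensing windows, and in 0 of the 19 windows of DNA synthesis, spindle checkpoint, chromosome and spindle motor genes. The CHR was in 4 of 4 windows of mitotic cyclins and kinases, 4 of 5 of the spindle checkpoint, 3 of 5 of the chromosome group and 4 of 5 of the spindle motors, but 2 of 8 of the licensing genes. Ect2 has 2 overlapping windows, and overlapping E2F matches on opposite strands were counted once per window. A match describes the letters and is not a measured binding site.

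The 6 promoters below were picked to show that contrast, which others break. Among the licensing genes, the Mcm2 window holds a CHR and no E2F motif, and an Mcm7 window holds both. The Cdc6 window and the other Mcm7 window hold neither. In the mitotic groups, the windows of Mad2l1, Birc5, Cenpe and Nusap1 hold no CHR. Each line gives the 160 bases before the start on the gene's strand, 5′ to 3′, from RefSeq on GRCm38.p6, with motif matches on either strand in capitals. Mcm5 (chr8:75109349-75109508, plus strand) and Mcm6 (chr1:128359706-128359865, minus strand), helicase subunits, carry E2F motifs and no CHR. Cdk1 (chr10:69352913-69353072, minus strand), the mitotic kinase, carries both. Cdc20 (chr4:118437344-118437503, minus strand), Top2a (chr11:99024190-99024349, minus strand) and Kif11 (chr19:37376222-37376381, plus strand), genes of anaphase onset, chromosome untangling and spindle bipolarity, carry the CHR with CCAAT and no E2F motif.
Mcm5: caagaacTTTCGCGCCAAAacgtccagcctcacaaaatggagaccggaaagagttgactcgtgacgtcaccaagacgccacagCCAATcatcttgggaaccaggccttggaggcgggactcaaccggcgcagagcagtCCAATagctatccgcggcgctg
Mcm6: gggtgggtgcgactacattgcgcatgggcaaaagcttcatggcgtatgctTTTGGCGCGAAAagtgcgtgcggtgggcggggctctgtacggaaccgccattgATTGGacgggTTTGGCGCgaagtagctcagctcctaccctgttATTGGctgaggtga
Cdk1: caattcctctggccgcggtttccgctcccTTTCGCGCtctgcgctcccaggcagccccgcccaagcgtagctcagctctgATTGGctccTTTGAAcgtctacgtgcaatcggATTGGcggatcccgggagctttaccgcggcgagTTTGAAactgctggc
Cdc20: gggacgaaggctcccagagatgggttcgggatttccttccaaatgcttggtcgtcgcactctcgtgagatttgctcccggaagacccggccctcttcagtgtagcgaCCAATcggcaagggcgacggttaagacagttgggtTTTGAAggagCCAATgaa
Top2a: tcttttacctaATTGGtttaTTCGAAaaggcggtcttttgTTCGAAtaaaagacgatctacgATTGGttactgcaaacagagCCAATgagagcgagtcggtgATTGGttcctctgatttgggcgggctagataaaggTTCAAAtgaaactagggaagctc
Kif11: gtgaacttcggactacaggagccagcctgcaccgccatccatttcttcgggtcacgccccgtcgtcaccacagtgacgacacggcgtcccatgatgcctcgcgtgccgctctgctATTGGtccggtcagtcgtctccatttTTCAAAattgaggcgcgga
Counted from the start, with -1 as the last base shown, the E2F matches of Mcm5 begin at -153 and -149 and overlap on opposite strands. Those of Mcm6 at -110 and -106 overlap likewise, and another begins at -47. The 5′-most base of the homology region is at -18 in Cdc20 and at -19 in Kif11, where it lies on the opposite strand, as does the CCAAT box at -45.

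**Figure D3:**
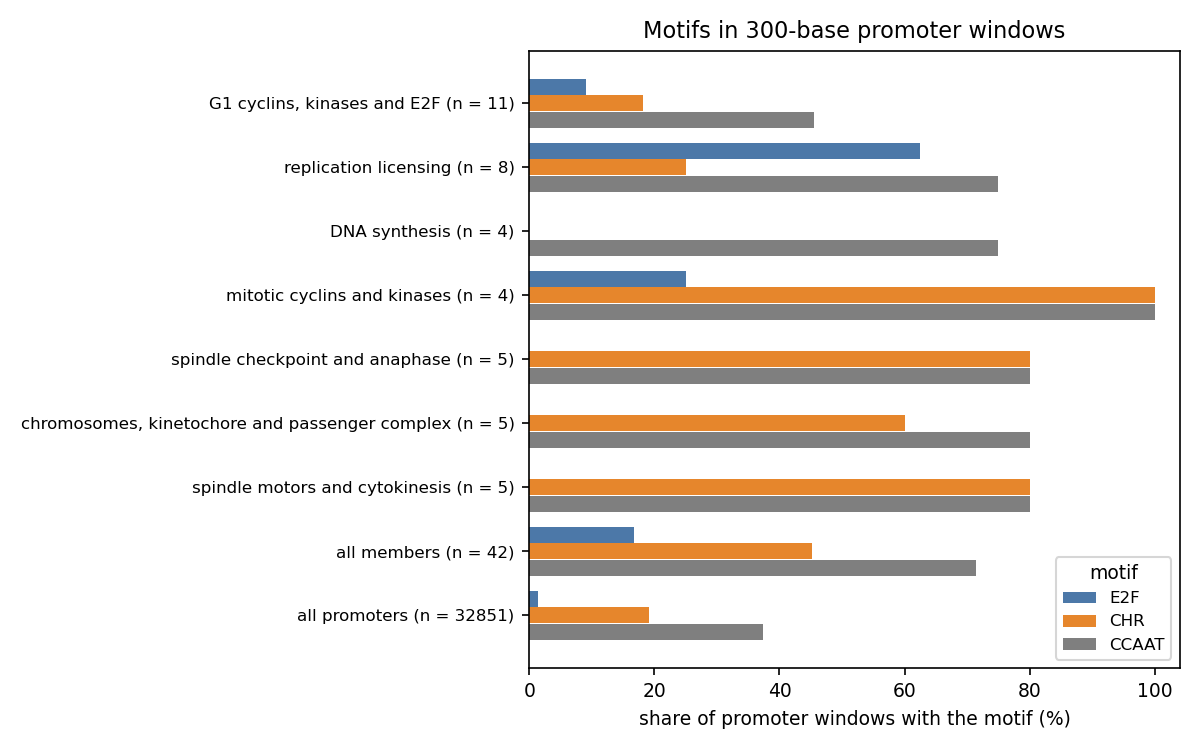
Share of promoter windows that hold each motif (horizontal axis, percent) for each role group, for all windows of the cell cycle genes and for all 32851 windows (vertical axis, with the number of windows). The E2F bar is longest for replication licensing (62.5%), and the CHR bars are at 60% to 100% in the 4 mitotic groups.

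The G1 group of 11 genes held both called genes. Its median log2 change was -0.68 at E11.5 against E10.5, 0.32 at E12.5 against E11.5 and -0.31 at E12.5 against E10.5. At E12.5 against E11.5, 2 of the 11 were called higher (1.79% of all genes were), 0 lower and 9 did not pass. Ccnd1, cyclin D1, the main D-type cyclin of the retina, read 11.03, 10.79 and 11.12 at E10.5, 9.67, 9.81 and 10.45 at E11.5, and 11.83 and 11.89 at E12.5. Both E12.5 arrays were above all others, and all E11.5 arrays were below all others. It rose by 1.89 at E12.5 against E11.5 (SE 0.34, 3.70-fold, adjusted p = 0.0161), and its 3 probe sets were each called, at 1.81 to 2.19. Of the 92 kept probe sets of cell cycle genes 4 were called higher in that comparison (4.35%), against 1.62% of all probe sets. Its change at E11.5 against E10.5 was -1.01 (SE 0.30, adjusted p = 0.16). Ccne2, cyclin E2, a partner of Cdk2 at the entry to S phase, read 6.59, 7.49 and 7.26 at E10.5, 6.14, 6.45 and 6.64 at E11.5, and 8.19 and 8.03 at E12.5. Both E12.5 arrays were again above all others, while E10.5 A lay among the E11.5 arrays. It rose by 1.70 (SE 0.30, 3.25-fold, adjusted p = 0.0155), on its only kept probe set. Against E10.5, the E12.5 change was 0.99 for Ccne2 (SE 0.30, adjusted p = 0.0846) and 0.88 for Ccnd1 (SE 0.34, adjusted p = 0.157), the highest of the 44 genes. For both genes E12.5 A read as high as E12.5 B to within 0.16. The newborn neuron markers summed to 991 on A and 11760 on B, both above every earlier array, and their part was not tested. Both calls were lost without E11.5 B or without either E12.5 array, with adjusted p up to 0.278 for Ccnd1 and 0.16 for Ccne2, and Ccne2's also without E11.5 A.

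Cyclin D2 and cyclin E1 read highest at E10.5. Ccnd2 read 12.41, 12.22 and 12.41 at E10.5, 10.84, 11.26 and 11.47 at E11.5, and 11.89 and 10.52 at E12.5. Every E10.5 array was above every later one, and the E12.5 arrays differed by 1.37, the widest gap between them for any of the 44 genes. The low array, E12.5 B, was the one with the high newborn neuron markers, and their part was not tested. Its change at E12.5 against E10.5 was -1.14 (SE 0.42, adjusted p = 0.145), and 0.01 at E12.5 against E11.5. Another of its 6 kept probe sets, 1416122_at, read 10.25, 10.39 and 10.66 at E10.5, 9.35, 9.59 and 9.58 at E11.5, and 9.62 and 8.22 at E12.5. This probe set fell by 1.51 at E12.5 against E10.5 (SE 0.39, adjusted p = 0.0487), with 1.56% of all probe sets called lower, and 13 of 18 alternative settings lost the call. Ccne1 read 11.63, 11.19 and 11.93 at E10.5, 10.23, 10.29 and 10.60 at E11.5, and 10.58 and 10.48 at E12.5, with every E10.5 array above every later one. Its change at E12.5 against E10.5 was -1.06 (SE 0.33, adjusted p = 0.095). On the other kept probe set of Ccne1, 1416492_at, the stages overlapped, with E10.5 C at 6.76 and the E11.5 arrays at 6.71, 6.86 and 6.84. That probe set changed by -0.44 at E11.5 and -0.65 at E12.5, each against E10.5. The log2 difference Ccnd1 minus Ccnd2, which has no absolute meaning between probe sets, was -1.37, -1.42 and -1.30 at E10.5, -1.17, -1.45 and -1.03 at E11.5, and -0.06 and 1.37 at E12.5. Both E12.5 arrays were above all 6 earlier ones. This measure was chosen after its values were seen, and an exact two-sided permutation test gave p = 0.1 at E12.5 against E11.5 and at E12.5 against E10.5, the smallest that 2 arrays against 3 allow.

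**Figure D4:**
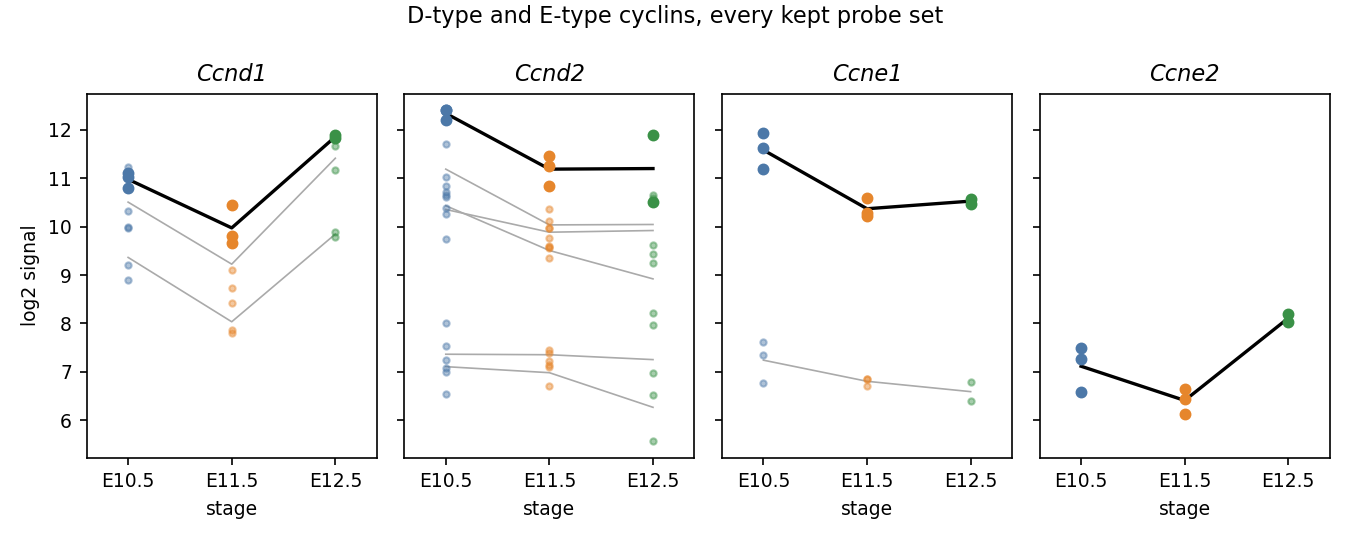
Log2 signal (vertical axis) of every kept probe set of cyclins D1, D2, E1 and E2 by stage (horizontal axis), with 1 point per array. Large points and black lines mark the probe set that stands for the gene and its stage means, and small points and grey lines its other probe sets. All 3 lines of Ccnd1 and the line of Ccne2 are lowest at E11.5 and highest at E12.5, while the black lines of Ccnd2 and Ccne1 are highest at E10.5.

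The other G1 genes did not pass. Cdk6, a kinase partner of D-type cyclins, was the only gene of the 44 with a positive change at E11.5 against E10.5, 0.05 (SE 0.33, adjusted p = 0.953), and the lowest at E12.5 against E11.5, -0.0048 (SE 0.37, adjusted p = 0.996). Its arrays overlapped in every comparison, at 9.05, 8.17 and 8.04 at E10.5, 7.98, 8.51 and 8.90 at E11.5, and 8.56 and 8.36 at E12.5. Cdk4, the other such kinase, had changes of -1.07 (SE 0.32) at E11.5 against E10.5 and -0.74 (SE 0.36) at E12.5 against E10.5. Cdk2 had -0.68 (SE 0.30) and -0.65 (SE 0.34), with 0.03 at E12.5 against E11.5, and Ccnd3, cyclin D3, had -0.64 (SE 0.30) and -0.55 (SE 0.33). The activator factors E2f1, E2f2 and E2f3 had -0.64, -0.52 and -0.37 at E11.5 against E10.5, and 0.32, 0.45 and 0.56 at E12.5 against E11.5. A weaker probe set of E2f3, 1427462_at, read 5.13, 5.33 and 5.41 at E10.5, 4.75, 4.67 and 4.64 at E11.5, and 4.48 and 4.51 at E12.5, with no overlap between stages. It fell by 0.79 at E12.5 against E10.5 (SE 0.19, adjusted p = 0.035), and 8 of 17 alternative settings lost the call. The probe set that stands for the gene, with the higher mean signal, changed by 0.19 in that comparison (SE 0.40), so the probe sets of E2f3 disagreed in sign.

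The 9 licensing genes had a group median of -1.01 at E11.5 against E10.5, 0.81 at E12.5 against E11.5 and -0.33 at E12.5 against E10.5. In each comparison 0 of the 9 were called, and at an unadjusted p below 0.05 7 were lower at E11.5 against E10.5 (18.3% of all genes and 59.1% of those above 10 were) and 3 higher at E12.5 against E11.5 (14.9% and 24.9% were). Mcm7, a helicase subunit and the brightest probe set of the group, read 13.45, 13.25 and 13.47 at E10.5, 11.58, 12.16 and 12.74 at E11.5, and 13.04 and 12.89 at E12.5. The 3 stages did not overlap on it. Its change was -1.23 at E11.5 against E10.5 (SE 0.37, adjusted p = 0.159) and 0.81 at E12.5 against E11.5 (SE 0.41, adjusted p = 0.347). Mcm5, whose promoter opens the set of sequences above, had the lowest change of all 44 genes, -1.56 at E11.5 against E10.5 (SE 0.35, 2.95-fold, adjusted p = 0.131). It stayed low at E12.5, with -1.35 against E10.5 (SE 0.39, 2.55-fold, adjusted p = 0.0699). Its readings were 10.93, 10.33 and 11.75 at E10.5, 9.44, 9.40 and 9.48 at E11.5, and 9.71 and 9.59 at E12.5, with E10.5 C highest and no overlap between E10.5 and the later stages. A second Mcm5 probe set, 1415945_at, changed by -0.56 and -0.07 in these comparisons. Mcm6 had -1.38 (SE 0.34) at E11.5 against E10.5 and 0.96 (SE 0.38) at E12.5 against E11.5, and Mcm4 had -1.23 (SE 0.36) and 0.90 (SE 0.41). Mcm2 had -0.99 and 0.44, and Mcm3 -0.63 and 0.52. Cdt1 and Cdc6, which load the helicase, had -1.01 and -0.87 at E11.5 against E10.5, and 1.08 and 0.57 at E12.5 against E11.5. Gmnn, geminin, the inhibitor of Cdt1, had -0.68 and 0.81.

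The 4 DNA synthesis genes had group medians of -1.09 at E11.5 against E10.5, 0.99 at E12.5 against E11.5 and -0.10 at E12.5 against E10.5, with 0 called. Rrm2, the regulated subunit of ribonucleotide reductase, read 12.87, 12.54 and 12.04 at E10.5, 10.63, 11.24 and 12.12 at E11.5, and 12.49 and 12.48 at E12.5. E11.5 C lay within the E10.5 range. Its changes of -1.15 (SE 0.41, adjusted p = 0.182) and 1.15 (SE 0.45, adjusted p = 0.237) left 0.00 at E12.5 against E10.5. Its other kept probe sets, 1448226_at and 1416120_at, changed by -0.25 and -0.96 (SE 0.27, adjusted p = 0.0644) in that comparison. On 1416120_at every E10.5 array was above every later one, and the change at E12.5 against E11.5 was -0.03. Pcna, the sliding clamp of DNA polymerase, read 12.42, 12.46 and 12.07 at E10.5, 10.43, 11.01 and 11.98 at E11.5, and 12.54 and 12.33 at E12.5. All its E11.5 arrays were below all others. It had -1.17 (SE 0.40) and then 1.29 (SE 0.44, adjusted p = 0.179), the largest of the 44 genes at E12.5 against E11.5 after the called ones. Rrm1, the large reductase subunit, had -1.03 (SE 0.34) and 0.83 (SE 0.38). Tyms, thymidylate synthase, read 6.31, 6.36 and 6.78 at E10.5, 5.77, 5.61 and 5.59 at E11.5, and 5.87 and 5.80 at E12.5, with every E10.5 array above every later one. Its change at E12.5 against E10.5 was -0.65 (SE 0.23, adjusted p = 0.129). A Tyms probe set shared with its pseudogene was not used.

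The 5 measured mitotic cyclins and kinases had medians of -0.69 at E11.5 against E10.5, 0.27 at E12.5 against E11.5 and -0.16 at E12.5 against E10.5, with 0 called. Cdk1 read 10.66, 10.63 and 10.01 at E10.5, 9.53, 9.84 and 10.43 at E11.5, and 10.84 and 10.59 at E12.5. The E11.5 and E10.5 arrays overlapped, and both E12.5 arrays were above every E11.5 array. Its changes were -0.50 (SE 0.32, adjusted p = 0.403) and 0.79 (SE 0.36, adjusted p = 0.3). Plk1, a kinase that acts from mitotic entry to cytokinesis, read 7.49, 7.22 and 7.50 at E10.5, 6.15, 6.36 and 6.89 at E11.5, and 6.89 and 6.49 at E12.5. All E10.5 arrays were above all later ones, with changes of -0.93 at E11.5 (SE 0.25, adjusted p = 0.152) and -0.71 at E12.5 (SE 0.28, adjusted p = 0.168), each against E10.5. Aurka, the centrosome kinase that activates Plk1, had -0.90 (SE 0.27) and -0.77 (SE 0.30) in the same comparisons. Ccna2, cyclin A2, and Ccnb2, cyclin B2, had -0.69 and -0.42 at E11.5 against E10.5, and 0.74 and 0.27 at E12.5 against E11.5.

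In the spindle checkpoint group of 5, with medians of -1.004, 0.76 and -0.23 in the 3 comparisons, 0 were called. Cdc20, the activator of the anaphase-promoting complex, read 12.65, 11.95 and 13.61 at E10.5, 11.11, 11.31 and 11.38 at E11.5, and 12.11 and 11.94 at E12.5. E10.5 C read highest, and the E11.5 arrays were below all others. Its change at E11.5 against E10.5 was -1.47 (SE 0.40, adjusted p = 0.155). Another of its 3 kept probe sets, 1416664_at, changed by -0.74 in that comparison. Bub1b, which encodes the checkpoint kinase BubR1, read 11.91, 11.25 and 12.43 at E10.5, 10.12, 10.39 and 10.72 at E11.5, and 10.85 and 10.30 at E12.5. Every E10.5 array was above every later one. Its changes were -1.45 at E11.5 (SE 0.36, adjusted p = 0.143) and -1.29 at E12.5 (SE 0.40, adjusted p = 0.0909), each against E10.5, and it was called at E12.5 after quantile normalization. Another Bub1b probe set, 1416961_at, changed by -0.69 in each of these comparisons. The related kinase Bub1 had -0.86 (SE 0.29) at E11.5 and 0.06 (SE 0.32) at E12.5, each against E10.5. Mad2l1, the checkpoint protein Mad2, had -1.004 (SE 0.29) at E11.5 against E10.5 and 0.84 (SE 0.33) at E12.5 against E11.5, and Ttk, the kinase that starts checkpoint signalling, had -0.50 and 0.27.

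The 6 genes of chromosomes, kinetochore and passenger complex had medians of -0.84, 0.76 and 0.15, with 0 called. Top2a, topoisomerase II alpha, read 13.21, 13.01 and 12.53 at E10.5, 11.25, 12.11 and 12.88 at E11.5, and 13.14 and 13.06 at E12.5. E11.5 A was more than 1 unit below the other arrays except E11.5 B, and the E11.5 and E10.5 arrays overlapped. Its changes were -0.84 (SE 0.43, adjusted p = 0.297) and 1.02 (SE 0.48, adjusted p = 0.307). Cenpf, a kinetochore protein, read 11.76, 11.59 and 11.36 at E10.5, 10.29, 10.64 and 11.28 at E11.5, and 11.75 and 11.73 at E12.5. Its E11.5 arrays were below all others, with changes of -0.84 (SE 0.33, adjusted p = 0.208) and 1.01 (SE 0.37, adjusted p = 0.202). Mki67, the proliferation marker Ki-67, had -0.98 (SE 0.36) and 0.91 (SE 0.40). Aurkb, the passenger complex kinase, had -0.85 and 0.58, and Cenpe, a kinetochore motor, had -0.43 and 0.61. Birc5, survivin, another passenger complex subunit, had -0.31 (SE 0.47) and 0.44 (SE 0.52), and its lowest array was E10.5 C at 7.83, against 9.81 and 9.50 on E10.5 A and B.

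The 4 genes of spindle motors and cytokinesis had medians of -0.66, 0.74 and 0.19, with 0 called. At E12.5 against E11.5, 3 were higher at an unadjusted p below 0.05, as were 14.9% of all genes and 24.9% of those above 10. Ect2, which acts at the cleavage furrow in cytokinesis, read 10.66, 10.26 and 10.23 at E10.5, 9.40, 9.44 and 9.73 at E11.5, and 10.63 and 10.59 at E12.5. The E11.5 arrays were below all others. Its changes were -0.86 (SE 0.27, adjusted p = 0.161) and 1.09 (SE 0.30, adjusted p = 0.103). Kif11, the motor that separates spindle poles, was the only gene beside Ccnd1 and Ccne2 with both E12.5 arrays above all others. It read 7.89, 8.06 and 7.67 at E10.5, 7.44, 7.40 and 7.50 at E11.5, and 8.20 and 8.21 at E12.5. Its change at E12.5 against E10.5 was 0.33 (SE 0.25, adjusted p = 0.459). The 3 kept probe sets of Kif11 disagreed in sign in that comparison, with 2 higher and 1 lower, from -0.33 to 0.33. Kif23, a motor of the spindle midzone, had -0.74 and 0.62, and Nusap1, which bundles spindle microtubules, had -0.58 and 0.73.

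At E12.5 against E10.5, 12 of the 44 genes had both later arrays below all 3 earlier ones, 27.3% against 27.7% of all genes, and 3 had them above, 6.82% against 19.9%. Of all genes with a mean log2 signal above 10, 37.5% had them below and 11.4% above. The 12 were Aurka, Bub1b, Ccnd2, Ccne1, Cdk2, Cdk4, Mcm2, Mcm5, Mcm6, Mcm7, Plk1 and Tyms. Of these, 8 are read by probe sets whose x or s suffix marks probes that can match other transcripts, as are 13 of the 44 genes. The split below was made after the values were seen. The 13 had a median change of -0.56 at E12.5 against E10.5, and the 31 others 0.04. On array E10.5 C the 13 read a median of 0.44 above the mean of arrays A and B, with 10 of 13 above it, and the 31 others read 0.31 below it on the median, with 20 of 31 below it. For 12 of the 13 genes a kept probe set without the suffix exists, whose median change in that comparison was -0.32, against -0.63 for the suffixed ones. Pairs of the brightest probe set of each kind gave, with the suffixed one first, for Bub1b -1.29 and -0.69, for Ccne1 -1.06 and -0.65, and for Mcm5 -1.35 and -0.07. The suffixed one was also the lower for Cdc20, Mcm3, Mcm4, Mcm6 and Mcm7. The order was the opposite for Cdk4, at -0.74 and -1.15, Mcm2, at -0.56 and -0.62, and Rrm2, at 0.001 and -0.25. The 6 kept probe sets of Ccnd2 disagreed within each kind, at -1.14 and -0.44 for the suffixed and -1.51, -1.14, -0.84 and -0.11 for the others. At E11.5 against E10.5 the unsuffixed probe sets of all 12 genes had negative changes, with a median of -0.72 against -1.22 for the suffixed ones.

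Other genes of the same machinery had similar medians. Of 40 listed origin, fork and nucleotide genes, 38 had kept probe sets, with medians of -0.77, 0.42 and -0.31 in the 3 comparisons. Only Rfc2, a clamp loader subunit, was called among them, lower at E12.5 against E10.5 by a change of -1.24 (SE 0.30, adjusted p = 0.0385), with 37 not passing. Of 34 other mitosis genes, with medians of -0.74, 0.68 and -0.18, Kif18a, a motor that limits chromosome movement, was called higher at E12.5 against E11.5 at 1.55 (SE 0.35, adjusted p = 0.0488). Spc24, a subunit of the kinetochore's Ndc80 complex, was called lower at E12.5 against E10.5 at -1.17 (SE 0.30, adjusted p = 0.0484). Differences between these lists were not tested. Among the brakes of the cycle, the 8 measured of 10 CDK inhibitors and pocket proteins had -0.06, 0.50 and 0.60, with 0, 2 and 0 called in the 3 comparisons. The 2 were called higher at E12.5 against E11.5, as were 1.79% of all genes. Cdkn2c, the Cdk4 and Cdk6 inhibitor p18, read 5.95, 5.65 and 6.13 at E10.5, 5.43, 5.51 and 5.76 at E11.5, and 6.53 and 6.87 at E12.5, and rose by 1.13 at E12.5 against E11.5 (SE 0.24, adjusted p = 0.0401). Rb1, the retinoblastoma protein that binds E2F factors, read 7.36, 7.48 and 8.33 at E10.5, 7.05, 6.79 and 6.86 at E11.5, and 8.08 and 9.13 at E12.5, and rose by 1.70 (SE 0.37, adjusted p = 0.0422). Its higher E12.5 array was B, with the high newborn neuron markers, and their part was not tested. Of 7 other E2F and DP factors, with medians of -0.57, 0.77 and 0.17, Tfdp2, a DNA-binding partner of E2F factors, was called higher at E12.5 against E10.5 at 1.36 (SE 0.32, adjusted p = 0.0374). Each of these 6 calls was lost in 7 to 11 of 19 alternative settings.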

How the data were processed

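Per the labels' protocols, pooled lysates were extracted, amplified linearly by T7 transcription and labelled with biotin, which favours 3 prime ends. The authors deposited log2 values for 45101 probe sets. The submitters' processing notes name GCOS 1.4 without its role. Summarization and normalization are not given in the sources used here. After 64 controls and the lowest 40% by mean signal (below 3.94) were left out, 27022 probe sets remained. Gene symbols came from the platform annotation and RefSeq (GRCm38.p6), with 932 probe sets of several symbols left unnamed.

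Stage was fitted with limma 3.58.1 in R 4.3.3 over all 8 arrays (5 residual degrees of freedom), with a trend in the prior and Benjamini-Hochberg adjustment at 0.05. A fold is 2 to the power of a difference of log2 means, and understates changes of dim genes. The fit was tested on simulated data with independent noise on each value. Those data had no differences between arrays in the upper end of the range, so the test does not cover such differences. The depth of an array is not defined, and the number of arrays limits precision.

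Genes with values on every array are those called in any test and, per role group, the brightest and the one with the smallest F test p. Added to these are the 3 largest changes each way per comparison and called pathway genes. The members and lists were chosen with earlier results of these data known. Alternatives were other scalings, filters, weights, probe set rules and left-out arrays. Same-letter arrays of E11.5 and E10.5 had deviations correlated at -0.39, -0.11 and -0.38, so letters were not taken as pairs.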

Additional observations from a re-analysis of the deposited data

How the results depend on the processing

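Quantile normalization moved the median change of the 44 genes, taken from that of all kept probe sets, to -0.19 at E11.5 against E10.5 (-0.67 as deposited) and to 0.22 at E12.5 against E11.5 (0.52 as deposited). It also called 2 genes at E12.5 against E10.5, Ccnd1 higher and Bub1b lower, against 0. Leaving out E10.5 C and E11.5 A together kept both medians' signs and both calls, Ccnd1 and Ccne2.

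Leaving out 1 array at a time gave 0 to 3 called genes at E12.5 against E11.5 (0 without E11.5 B, E12.5 A or E12.5 B, 1 without E11.5 A), 0 to 2 at E12.5 against E10.5 (Bub1b and Mcm5, without E10.5 B), 0 to 1 for E11.5 against the mean of both other stages, and 0 to 6 in the F test (6 without E11.5 C). With 1 E12.5 array the lone array is assumed to vary like the other stages. With no trend in the prior the F test called 4. With the letter as a replicate block it called 0, and the replicate block left 2 genes called at E12.5 against E11.5. Array weights called 36, 32, 5, 41 and 40 genes in the 4 comparisons and the F test, but their estimation stopped before convergence with a weight of 218 on E11.5 B against 0.16 to 1.20 on the others, so these counts are not used. Alternatives were run for 25 single changes, among them every call above, and not for the other changes printed. Among these 25, the sign was kept throughout, and the side of the threshold was kept in 361 of the alternative values, gained in 18 and lost in 88. The array weights fit, although set aside, is among the alternatives in these totals and in the numbers of alternative settings given above. The number of arrays, and no detection call, limits how small a change can be seen.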

Other observations

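Beside the genes above, 2 pathway genes were read by probe sets that behaved unlike any other in their lists, and they were picked out after their values were seen. The Tpx2 probe set 1447518_at read 6.20, 11.96 and 6.35 at E10.5, 12.48, 12.92 and 11.91 at E11.5, and 11.53 and 12.23 at E12.5. Tpx2 encodes a spindle assembly factor. The E2f5 probe set 1447625_at read 8.64, 12.29 and 7.97 at E10.5, 13.63, 13.13 and 12.76 at E11.5, and 12.04 and 12.52 at E12.5. E2f5 encodes a repressive E2F factor. In both, array E10.5 B lay with the later stages, and arrays E10.5 A and C lay far below. Neither was called at E11.5 against E10.5, with changes of 4.26 (adjusted p = 0.153) and 3.54 (adjusted p = 0.142).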
